A study of Mus musculus with 2 samples.

Results

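Non-dividing classical monocytes of mouse bone marrow were taken from 2 single-cell libraries, and 248 control barcodes and 271 MYC barcodes qualified, 519 of 31569 in all. A barcode qualified with at least 1000 UMIs (unique molecular identifiers, each standing for 1 captured transcript), under 10% of them mitochondrial, and at least 4 UMIs summed over F13a1, Fn1, Ccr2, Ms4a6c and Csf1r. It also had to have under 5% of its UMIs from S100a8 and S100a9, at most 2 from the C1q genes, at most 1 from Ace and Adgre4, none from Siglech, at most 5 from H2-Aa, H2-Ab1 and H2-Eb1, and none from Mki67 or Top2a. The members were thus selected on the measured counts of these genes, whose values are given below as a description.

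Classical monocytes are the Ly6c-high circulating phagocytes that the marrow makes from granulocyte and monocyte progenitors. They leave the marrow through the chemokine receptor Ccr2, enter inflamed tissue, and become macrophages or Ly6c-low nonclassical monocytes. They respond to type I interferon through a complex that includes Stat2 and Irf9 and binds the interferon-stimulated response element. MYC is a transcription factor that binds the E-box CACGTG with its partner Max and is known for driving ribosome production, nucleotide synthesis and growth.

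The study compared marrow hematopoietic cells with and without MYC overexpression, the stem cell being the stated site of that overexpression. The control library had the genotype Mx1Cre+/-;Rosa26+/+ and the MYC library Mx1Cre+/-;Rosa26LSL-MYC/LSL-MYC, so both carried the Cre allele and only the MYC library the transgene, silent until Cre removes a stop cassette. The Mx1 promoter is itself induced by interferon. Age, sex, Cre induction, the time after it, and whether a library pooled animals are not given in the sources used here. Each genotype had 1 library, so no test across samples was possible, no p-value is given, and genotype cannot be told apart from library. All intervals are 95% intervals and cover counting error only.

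The control members held 2127267 UMIs and the MYC members 2633181, with medians of 9007 and 10002 UMIs and 2525.5 and 2590 genes per cell. A median of 3.29% and 3.46% of a member's UMIs were mitochondrial. Gm42418, a transcript that overlaps ribosomal RNA, took 23.9% of the UMIs of control members and 11.1% of those of MYC members, and it was also the higher in the control in neutrophil barcodes (7.26% against 5.39%) and lymphoid barcodes (28.3% against 15.8%). Values are UMIs per 1000000 of the members' UMIs (CPM), so this gene lowers the CPM of all others more in the control, and results that depend on it are named as such. Across the libraries 97 barcode sequences occurred in both, and no member did so as a member of both.

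The label was checked against 24 classical monocyte markers, of which 19 are not in the rule. Of the 4 defining markers, Ccr2, Fn1 and F13a1 are genes of the rule, so their presence follows from the selection and is a description. Ly6c2 and the other markers outside the rule are the ones that check the label. Ccr2, the chemokine receptor for marrow exit, had at least 1 UMI in 98.0% of control and 95.6% of MYC members. Fn1 (fibronectin) had at least 1 UMI in 86.3% and 91.5%, and F13a1 (the coagulation factor XIII A chain) in 87.9% and 90.4%. Ly6c2, the surface antigen that defines the subset, had at least 1 UMI in 86.7% and 90.4% of members. Ly6c2 was not specific to these cells: it stood at 225 CPM in lymphoid barcodes of the control and at 1211 CPM in those of the MYC library. All 19 markers outside the rule except Chil3 had higher CPM in members than in the other barcodes that passed the depth and mitochondrial filters. This held in both libraries. Chil3 was at 1304 against 2126 CPM in the control and at 1281 against 2113 CPM in the MYC library. In the MYC library Cybb (956 against 905 CPM) and Cd44 (177 against 173 CPM) were nearly level. Cd14 had a UMI in 7.26% of control and 21.4% of MYC members.

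A minority of the barcodes that met the rule carried little monocyte RNA. The 19 markers outside the rule supplied a median of 2.92% of a control member's UMIs and 2.51% of a MYC member's, but under 1% in 34 control members (13.7%) and 24 MYC members (8.86%). Of these marker-poor members, 20 control and 6 MYC cells had at least 5 UMIs from T or NK cell genes, and 11 and 7 had at least 5 from basophil or mast cell genes. The other 214 and 247 members, here called marker-rich, had 1% or more, with 8 and 7 cells close to the limit (within 0.25 of its value). T-cell transcripts moved with the library: Trbc2 had 55 UMIs in control and 3 in MYC members, and all of them lay in marker-poor members. Results are therefore given over all members and, where they differ, over marker-rich members.

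The rule's last step kept the fewest cells. Without the condition on Mki67 and Top2a, which encode the Ki-67 antigen of cycling cells and a topoisomerase that separates chromosomes, 1326 control and 1615 MYC barcodes passed, and 18.7% and 16.8% of them had neither gene. Just outside the limit, 169 control and 200 MYC barcodes had 1 UMI of the pair. Those cells resembled members in Fn1, at 1679 CPM against 1706 in control members and 1210 CPM against 1192 in MYC members. In the MYC library the histone gene H2afz was at 1493 CPM in them and 1209 CPM in members. With 3 or more UMIs, Fn1 was at 609 and 596 CPM, and Prtn3, a granule protease of progenitors, at 2705 and 2668 CPM. At least 1 UMI of the pair was also found in 63.1% of control and 58.6% of MYC neutrophil barcodes and in 61.7% and 58.1% of lymphoid barcodes. At the lower edge of the monocyte floor, 10 control and 9 MYC members had exactly 4 UMIs of the 5 monocyte genes, 22 and 21 barcodes had 3, and the median member had 51 and 38.

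Members made up 1.87% of control barcodes that passed the depth and mitochondrial filters (248 of 13251, exact interval 1.65 to 2.12) and 2.57% of those of the MYC library (271 of 10543, 2.28 to 2.89). The difference was 0.699 percentage points, with a Newcombe interval of 0.316 to 1.09. With cells that had Mki67 or Top2a UMIs kept, the shares were 10.0% and 15.3%, a difference of 5.31 points. With only the members that had no UMI of Mpo, Elane, Prtn3, Ctsg and Ms4a3 the direction turned, to -0.195 points (56 control and 24 MYC cells). The limit on C1q UMIs left 1818 of 1877 control and 1893 of 2233 MYC barcodes that had passed the terms before it. C1qb was also at 1.26 CPM in control and 31.5 CPM in MYC lymphoid barcodes. The share without this limit was not tested. A share of marrow barcodes also moves with every other cell type in the library.

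The MYC feature, whose sequence is not given in the sources used here, checks the labels. It had 0 UMIs in the 248 control members, which allows a share of cells with a UMI of up to 1.21% (taking 3 counts as the limit), and 9 UMIs in 8 of the 271 MYC members (2.95%). In the MYC library 3.40% of neutrophil barcodes and 2 of 160 lymphoid barcodes had a UMI, at median depths of 7191 and 5268.5 UMIs, and neither group of the control had any. The endogenous gene Myc (chr15:61985391-61990374, GRCm38) had 23 UMIs in control and 51 in MYC members, 10.8 and 19.4 CPM. Both are below the level used for calls, and 14 of the 51 UMIs came from 1 cell. Marker-poor members held 19 of the 23 control and 41 of the 51 MYC UMIs. The ratio of Myc took the other sign under 2 alternatives (-0.70 to 1.53 over all of them).

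Over all genes, differences between the libraries went both ways. The level for calls, 20 CPM or more on average, was reached by 5150 genes, and the median log2 ratio (MYC over control, with 1 CPM added to each) was -0.13. Of these, 273 genes (5.3%) were at least 2-fold higher and 319 genes (6.19%) at least 2-fold lower in the MYC library, so 46.1% of the called genes were higher. The counting interval of the ratio lay above 0 for 25.5% of genes and below 0 for 33.7%. Scaling by the median of gene ratios gave 418 higher and 199 lower (67.7% higher), and leaving Gm42418 out of the total gave 148 higher and 775 lower with an all-gene median of -0.36. Leaving it out lowers every ratio by about the same amount, so that ratios just above 0 turn negative. The balance of higher against lower therefore depended on the scaling. The lists are read against the all-gene median and these shares of all genes.

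**Figure D1:**
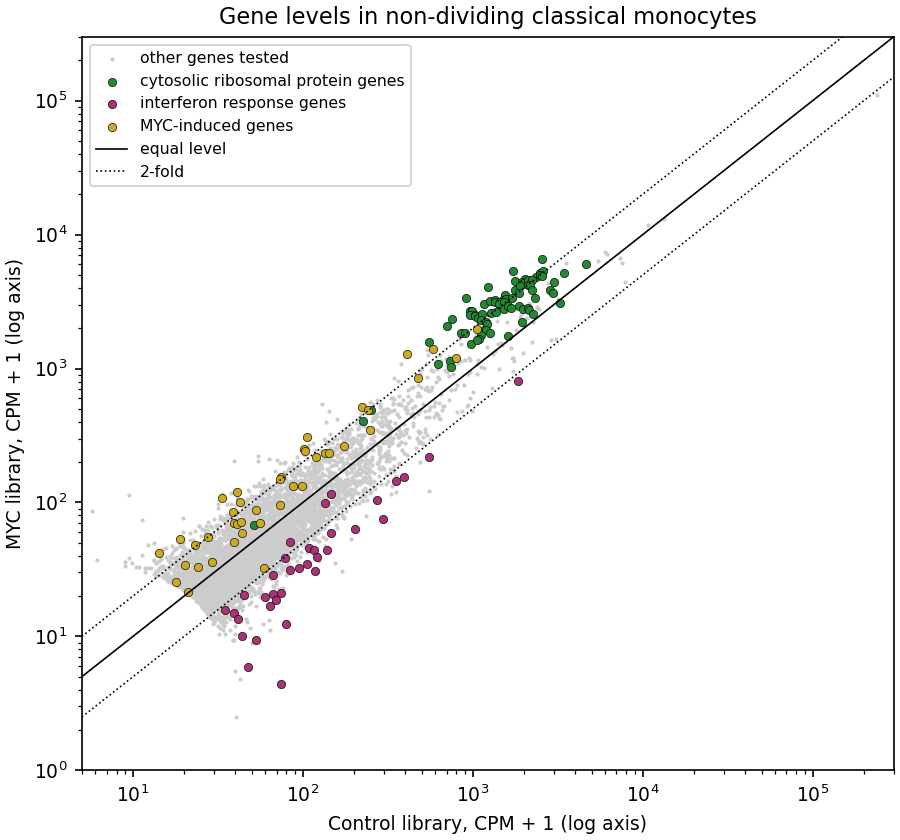
Level of each of the 5150 genes in members of the control library (horizontal, CPM + 1, log axis) and the MYC library (vertical, CPM + 1, log axis), with ribosomal protein, interferon response and MYC-induced genes coloured. Interferon response genes lie below the line of equal level, 32 of 35 of them past the lower 2-fold line, and 79 of 80 ribosomal protein genes lie above it.

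Interferon response genes were lower in MYC members throughout the list. All 35 tested genes had a counting interval below 0, against 33.7% of all genes, and 32 of them were at least 2-fold lower and none was higher, against a background of 6.19% lower. The list median was -1.56, and it ranged from -1.81 to -1.13 over the 20 alternatives. With cells that had Mki67 or Top2a UMIs kept, 15 of 23 tested were at least 2-fold lower, and over members without primary granule UMIs 20 of 34. Summed over the list, control members had 6277 CPM and MYC members 2436 CPM. Over marker-rich members the median was -1.64.

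The promoters of interferon-induced genes are known for the interferon-stimulated response element. RefSeq promoter windows (GRCm38.p6, 250 bases before to 50 after the start) matched 27 of the 35 tested genes in 35 windows. The core, a pair of GAAA separated by any 2 bases and searched on both strands with overlapping matches counted once, was in 20 of these windows (57.1%), against 3.44% of all 32851 windows and 3.98% of the windows of all tested genes. The 250 bases before the start are shown for Rsad2 (chr12:26456453-26456702, minus strand), Ifit1 (chr19:34640639-34640888, plus strand) and Ifit3 (chr19:34583279-34583528, plus strand). They were chosen because they were among the 4 with the lowest ratios of the tested genes of the list and their windows hold the core. The 2 windows of Ifit2, the other of the 4, hold no core. Capitals mark the core, here read on the opposite strand.
Rsad2: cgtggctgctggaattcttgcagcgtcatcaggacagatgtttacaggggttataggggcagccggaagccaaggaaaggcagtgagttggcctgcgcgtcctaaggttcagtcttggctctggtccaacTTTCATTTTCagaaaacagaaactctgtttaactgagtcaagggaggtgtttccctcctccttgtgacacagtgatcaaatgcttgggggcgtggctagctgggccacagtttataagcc
Ifit1: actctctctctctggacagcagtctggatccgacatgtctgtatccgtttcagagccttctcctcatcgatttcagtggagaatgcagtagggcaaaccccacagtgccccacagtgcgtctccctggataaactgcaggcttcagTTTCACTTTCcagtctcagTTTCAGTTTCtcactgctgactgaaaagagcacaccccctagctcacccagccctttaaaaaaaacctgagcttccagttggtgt
Ifit3: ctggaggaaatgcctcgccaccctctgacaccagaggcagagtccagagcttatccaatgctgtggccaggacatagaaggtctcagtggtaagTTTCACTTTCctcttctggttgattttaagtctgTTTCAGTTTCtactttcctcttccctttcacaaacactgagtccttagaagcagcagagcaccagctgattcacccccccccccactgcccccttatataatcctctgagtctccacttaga
A match is a stretch of letters and no measure of binding.

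Rsad2 encodes viperin, which blocks viral replication. It stood at 73.3 CPM in control and 3.42 CPM in MYC members, the lowest ratio of the list at -4.07 (-5.58 to -3.46). Ifit2, an RNA-binding antiviral protein, was at 46.5 and 4.94 CPM (-3.00, interval -4.20 to -2.40). Ifit1, which binds RNA with an unmethylated cap, was at 78.0 and 11.4 CPM, and Ifit3, its partner, at 51.7 and 8.35 CPM. These 4 effectors were low in the MYC library, at 11.4 CPM or below.

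The regulators of the response were lower too. Stat2, a signal transducer of type I interferon, was at 94.0 and 31.1 CPM (-1.56) and Irf9, its DNA-binding partner, at 83.2 and 49.4 CPM (-0.74). Irf7, which amplifies interferon production, was at 137 and 42.9 CPM (-1.65). The receptor chains Ifnar1 and Ifnar2 had smaller ratios, -0.27 and -0.48, and the interval of Ifnar1 (-0.64 to 0.09) included 0.

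The ratios of the list nearest to 0 were those of Bst2, a membrane protein that tethers virus, at -0.35 (145 and 114 CPM), and Zbp1, a sensor of nucleic acid, at -0.44 (133 and 97.6 CPM). Bst2 was level when cells with Mki67 or Top2a UMIs were kept. The remaining genes of the list that averaged 100 CPM or more were at -1.19, the value of Ifi27l2a (1834 and 801 CPM), or below. They include Trim30a (202 and 61.9 CPM, -1.69), Ifi204 (272 and 103 CPM, -1.39), Ifi203 (394 and 154 CPM, -1.35), Slfn5 (549 and 218 CPM, -1.33), Parp14 (146 and 58.5 CPM, -1.31) and Sp100 (353 and 144 CPM, -1.29). Ifi203 and Mndal (381 and 154 CPM, -1.30) overlap on chromosome 1, and with Ifi204 they belong to a family of related genes. Trim30a, on chromosome 7, belongs to another family. Reads may be split among the copies within each family.

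The same was seen across single cells. After thinning each cell to 4000 UMIs, which left 231 control and 249 MYC members, the median cell had 20 UMIs of the list among control members and 8 among MYC members. Of MYC cells, 93.2% lay below the control median and 72.3% below the control lower quartile of 13. Control cells reached 124 UMIs and MYC cells 57. Leaving out Gm42418 before thinning gave medians of 29 and 10.

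**Figure D2:**
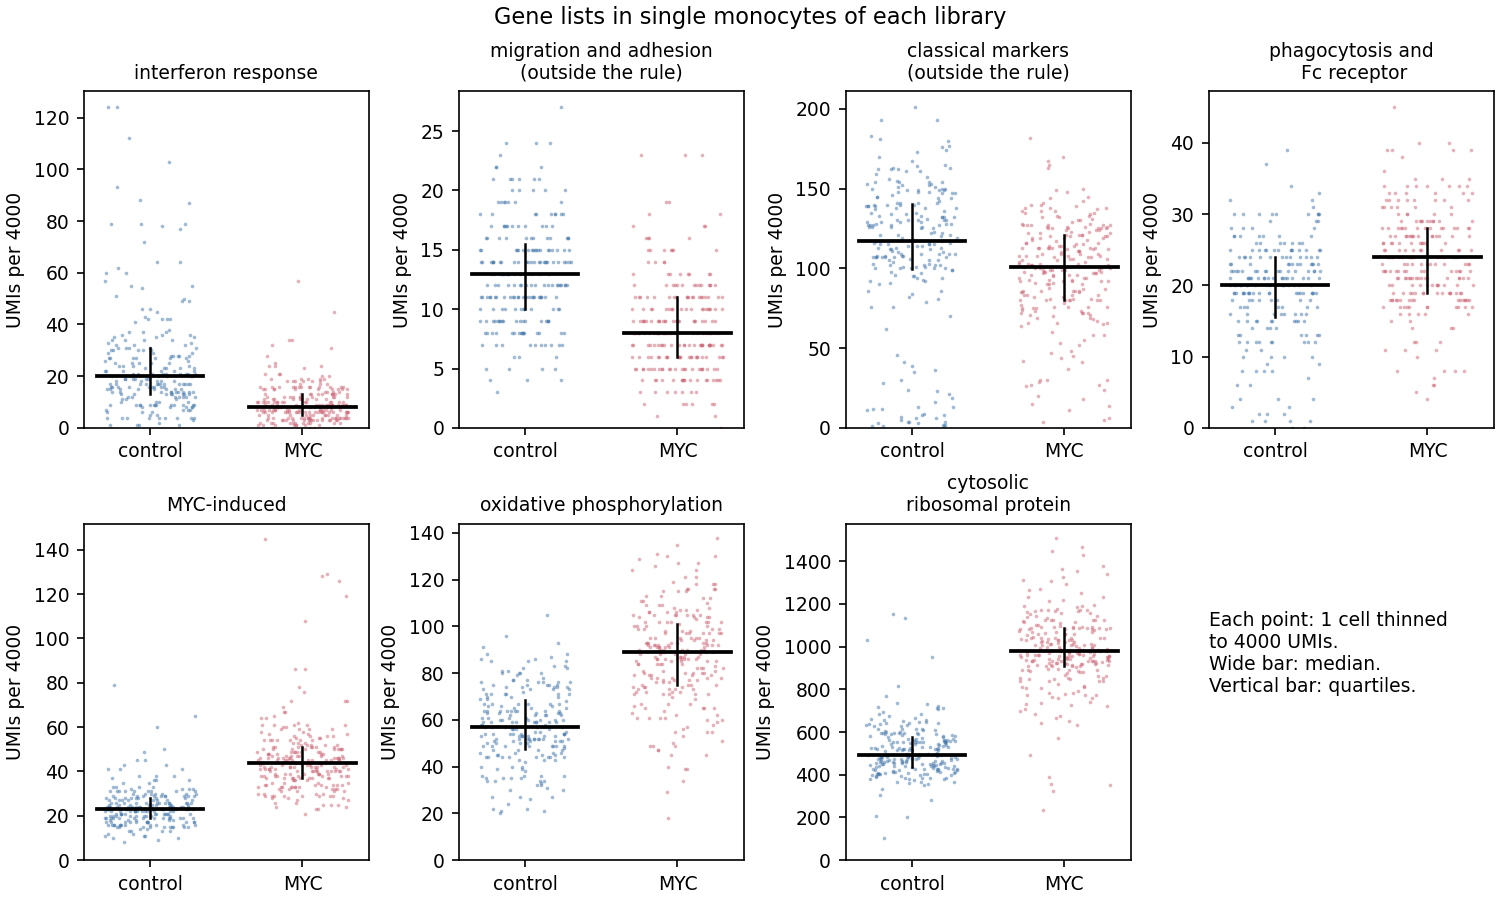
UMIs of 7 gene lists in single members after thinning to 4000 UMIs, for 231 control and 249 MYC cells; each point is 1 cell, the wide bar the median and the vertical bar the quartiles, and each panel has its own linear axis from 0; rule genes are left out of the lists. Medians go from 20 to 8 for the interferon response list and from 492 to 977 for ribosomal protein genes.

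The list median was also below 0 in the other groups of cells. It was -1.08 in barcodes that met the rule but had Mki67 or Top2a UMIs (1078 control and 1344 MYC), -1.49 in 164 and 64 nonclassical barcodes (at least 4 UMIs of Ace and Adgre4), -0.78 in 5450 and 5209 neutrophil barcodes (at least 15% of UMIs from S100a8 and S100a9) and -0.25 in 1000 and 160 lymphoid barcodes. With 1 library per genotype the difference between these cell groups was not tested. The median over all genes tested was -0.13 in members, -0.12 in the barcodes with Mki67 or Top2a UMIs and -0.11 in nonclassical barcodes. This all-gene median was -0.17 in neutrophil and -0.14 in lymphoid barcodes, so the list stood near all genes in lymphoid barcodes. The lymphoid barcodes were not the same mix of cells in both libraries. In them the B cell genes Ebf1 (661 and 201 CPM) and Vpreb3 (442 and 132 CPM) were lower in the MYC library. The T cell gene Cd3g (52.6 and 195 CPM) was higher. The part of this mix in the ratios of lymphoid barcodes, here and below, was not tested.

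**Figure D3:**
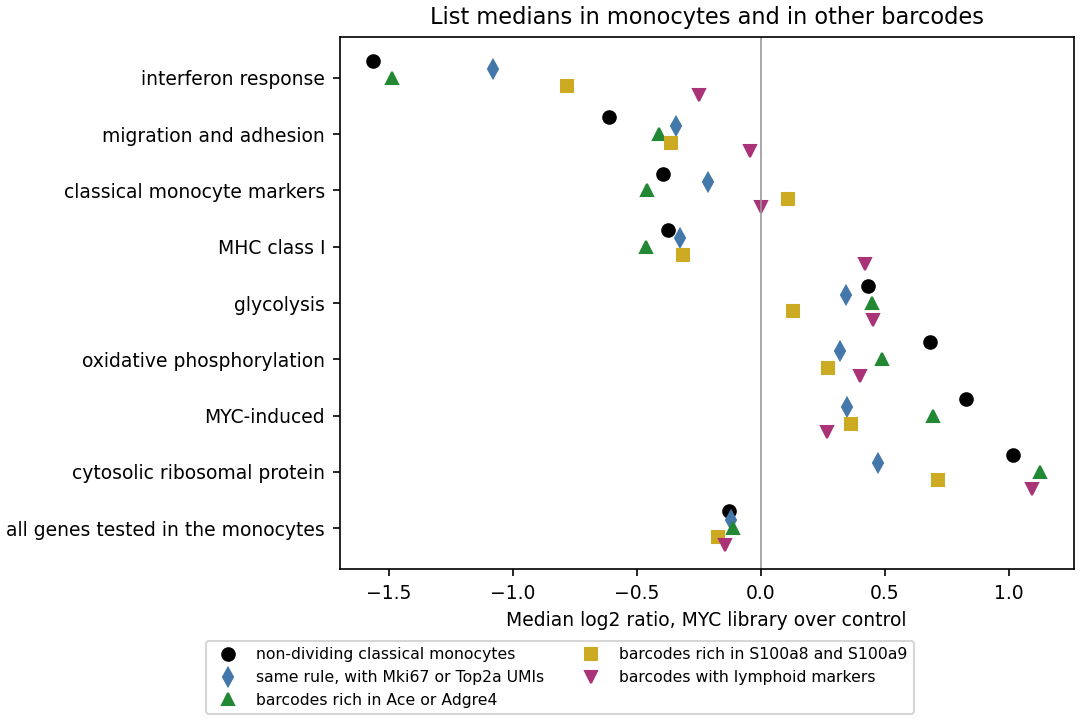
Median log2 ratio (MYC library over control, horizontal) of 8 gene lists and of all genes tested, in members and in 4 other groups of barcodes shown by symbol. Rule genes are kept in the lists here. The classical marker median of members is thus -0.40, and -0.24 outside the rule. Lymphoid barcodes were chosen to have no UMI of the 5 monocyte genes of the rule, so those genes have a ratio of 0 there by selection. The interferon response median is -1.56 in members and -0.25 in lymphoid barcodes, and the ribosomal protein median is 1.02 and 1.10.

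Ribosomal protein genes stood higher in MYC members. Of 80 tested, 79 had intervals above 0, against 25.5% of all genes, and 41 were at least 2-fold higher and none was 2-fold lower, against a background of 5.3% higher, with a median of 1.02. With Gm42418 left out of the total 16 of 80 were at least 2-fold higher, and 1 with cells that had Mki67 or Top2a UMIs kept. Together they supplied a median of 12.2% of a control member's UMIs and 24.1% of a MYC member's. The highest were Rps2 (915 and 3385 CPM, 1.89), Rps18 (1231 and 4094 CPM, 1.73), Rpl15 (754 and 2351 CPM, 1.64), Rpl32 (1730 and 5340 CPM, 1.63) and Rpl14 (708 and 2067 CPM, 1.54). The lowest was Rpl37a at -0.07 (3241 and 3086 CPM), followed by Rps27 at 0.11. Both Rpl37a and Rps27 took the other sign under at least 1 scaling, and ribosomal protein genes have many processed pseudogenes that can share their reads.

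Ribosomal protein genes were higher in the other cells too. Their median was 0.47 in barcodes with Mki67 or Top2a UMIs, 1.13 in nonclassical, 0.72 in neutrophil and 1.10 in lymphoid barcodes. Leaving Gm42418 out of the total brought the members' median to 0.80. Over all alternatives the members' median ran from 0.53 to 1.15. In cells thinned to 4000 UMIs, 97.6% of MYC members lay above the control median of 492 UMIs.

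Genes that MYC is known to induce were higher as a group. Of 41 tested, 34 had intervals above 0 and 1 below (25.5% and 33.7% of all genes). At least 2-fold higher were 17 (5.3% of all genes) and none was 2-fold lower. The median was 0.83 (0.38 to 0.95 over the alternatives). With cells that had Mki67 or Top2a UMIs kept, 1 of 53 tested was at least 2-fold higher. The list overlaps with what earlier results of these data had shown, so its direction is no independent evidence. The highest was C1qbp, a mitochondrial matrix protein, at 32.4 and 108 CPM (1.70, interval 1.35 to 2.13). Nme2 and Nme1, nucleoside diphosphate kinases encoded side by side on chromosome 11, were at 410 and 1276 CPM (1.64) and at 105 and 307 CPM (1.54). The pair are near-identical in sequence and can share reads.

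Other genes of the list had ratios from 1.57 to -0.88. Nhp2, a part of the small RNA particles that modify ribosomal RNA, was at 40.0 and 120 CPM (1.56). Srm, the spermidine synthase, was at 13.2 and 41.0 CPM (1.57). Eif5a, a translation factor that needs spermidine, was at 221 and 519 CPM (1.22), and Ran, the nuclear transport GTPase, at 101 and 249.5 CPM (1.30). Npm1 and Ncl, abundant nucleolar proteins, had smaller ratios of 0.84 and 0.48. Odc1, the first enzyme of polyamine synthesis, was level at 20.2 and 20.5 CPM. Ccnd2, a cyclin, was lower at 58.3 and 31.1 CPM (-0.88, interval -1.32 to -0.49). It took the other sign under 1 alternative (-1.36 to 0.11 over all of them).

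The E-box CACGTG was in 15 of 49 RefSeq windows (30.6%) of 36 matched genes of this list, against 7.15% of all windows and 10.7% of the windows of all tested genes. It was in 8 of 71 windows (11.3%) of the ribosomal protein genes and in none of the interferon list's windows. The bases before the start are shown for Nme1 (chr11:93968273-93968522, minus strand) and Ran (chr5:129019906-129020155, plus strand), the genes with the highest ratios in the list among those with a window that holds the motif, which is in capitals.
Nme1: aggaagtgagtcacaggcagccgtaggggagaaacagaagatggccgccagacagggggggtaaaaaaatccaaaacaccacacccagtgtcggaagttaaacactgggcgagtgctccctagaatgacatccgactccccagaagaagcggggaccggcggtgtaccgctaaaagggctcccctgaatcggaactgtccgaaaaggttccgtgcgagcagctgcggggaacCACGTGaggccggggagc
Ran: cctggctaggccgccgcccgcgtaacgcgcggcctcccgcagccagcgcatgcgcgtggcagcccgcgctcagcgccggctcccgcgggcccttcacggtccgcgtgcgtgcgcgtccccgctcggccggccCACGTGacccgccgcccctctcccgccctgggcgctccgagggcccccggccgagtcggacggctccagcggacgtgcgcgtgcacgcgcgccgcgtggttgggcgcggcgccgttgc
The letters alone do not show that MYC was bound there.

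Oxidative phosphorylation genes followed with smaller ratios. Of 64 tested, 59 had intervals above 0 and 1 below (25.5% and 33.7% of all genes). At least 2-fold higher were 7 (5.3% of all genes) and none was 2-fold lower. The median was 0.68 (0.36 to 0.81 over the alternatives). With Gm42418 left out of the total 3 of 64 were at least 2-fold higher, and 0 with cells that had Mki67 or Top2a UMIs kept. The highest were subunits of the ATP synthase, Atp5g1 (136 and 396 CPM, 1.53) and Atp5d (157 and 415 CPM, 1.39). The lowest were Ndufa3 of complex I (280 and 237 CPM, -0.24) and Sdhc of complex II (63.5 and 60.0 CPM, -0.08). The thinned median cell had 57 UMIs of the list among control members and 89 among MYC members, and 91.6% of MYC cells lay above the control median.

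Of 15 glycolysis genes tested, 8 had intervals above 0 and 2 below (25.5% and 33.7% of all genes). Ldha (lactate dehydrogenase, 102 and 241 CPM, 1.23) and Gapdh (543 and 1253 CPM, 1.21) were at least 2-fold higher, and Hk2, a hexokinase at the entry, was at least 2-fold lower (157 and 75.6 CPM, -1.05). Hk3, the myeloid hexokinase, was at 48.4 and 29.2 CPM (-0.71), and it took the other sign under 1 alternative (-1.09 to 0.54 over all of them). The list median was 0.43, and 0.13 with Gm42418 left out of the total. Gapdh also has many pseudogenes.

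Genes of migration and adhesion were lower by less than 2-fold. Outside the rule, which uses Ccr2 of this list, 14 were tested and the median was -0.63. Intervals lay below 0 for 12 and above 0 for none (33.7% and 25.5% of all genes). The lowest was Itgal, the integrin chain of LFA-1, at 166 and 91.1 CPM (-0.86), then Cxcr4, the receptor that retains cells in the marrow, at 26.3 and 14.4 CPM (-0.82). Itga4, a chain of VLA-4, was at 394 and 234 CPM (-0.75). Cx3cr1, the receptor for fractalkine, was at 212 and 138 CPM (-0.61). Fpr2 (0.19) and Ccr1 (-0.07), chemoattractant receptors, had intervals that included 0. The thinned median cell had 13 UMIs of the list without Ccr2 among control members and 8 among MYC members, and 86.7% of MYC cells lay below the control median.

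Among the markers that chose the cells, levels were lower in the MYC library, which is given as a description. Ccr2 (chr9:124101950-124113557) was at 1729 CPM in control (exact interval 1674 to 1786) and 1197 CPM in MYC members (1156 to 1240). Fn1 (chr1:71585520-71653200) was at 1706 and 1192 CPM and F13a1 (chr13:36867178-37050244) at 956 and 597 CPM. A median cell had 13 UMIs of Ccr2 and 13 of Fn1 in the control and 11 and 10 in the MYC library. Csf1r, the receptor for the monocyte growth factor, was at 288 and 216 CPM.

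The 19 markers outside the rule had a median of -0.24, with members that differed widely. Mpeg1, a pore-forming protein of phagocytes, was the lowest at 984 and 482 CPM (-1.03, interval -1.13 to -0.93), and Ms4a4c followed at 367 and 196 CPM (-0.90). Ly6c2 (chr15:75108158-75111970) was at 1738 CPM in control and 1132 CPM in MYC members (-0.62), with its near copy Ly6c1 at 1 and 0 UMIs, so reads of the pair may be shared. Lyz2 (lysozyme) at 13262 and 13131 CPM and Irf8, a transcription factor of the lineage, at 233 in each were level. Cd14, the co-receptor for lipopolysaccharide, at 9.40 and 31.9 CPM (1.66) and Vcan (versican) at 133 and 297 CPM (1.16) were the highest.

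Transcription factors of the lineage were mixed. Of 23 tested, 5 had intervals above 0 and 10 below (25.5% and 33.7% of all genes), and the median was -0.28. Tcf4 (114 and 55.4 CPM, -1.02) and Id2 (123 and 62.7 CPM, -0.96) were the lowest, and Klf4, a factor of monocyte differentiation, was at 237 and 141 CPM (-0.75). Cebpb, which supports nonclassical monocytes, was the highest at 415 and 622 CPM (0.58), and Spi1 (PU.1), the master factor of myeloid cells, was at 355 and 456 CPM (0.36). Spi1 and Cebpb thus stood on the other side from Klf4.

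Of growth factor and cytokine receptor genes, 17 were tested outside the rule, which uses Csf1r, with a median of -0.27. Intervals lay below 0 for 9 and above 0 for 1 (33.7% and 25.5% of all genes). Csf3r, the G-CSF receptor, was the lowest at 122 and 39.9 CPM (-1.59), and Il6ra followed at 285 and 135 CPM (-1.07). The exception was Ifngr1, a chain of the interferon gamma receptor, at 251 and 338 CPM (0.42, interval 0.27 to 0.58). Csf2ra and Csf2rb, chains of the GM-CSF receptor, had intervals that included 0.

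Phagocytic receptor genes had no common direction. Of 13 tested, 7 had intervals above 0 and 6 below (25.5% and 33.7% of all genes). The median of 0.42 took the other sign under 2 alternatives. Fcgr4, an activating Fc receptor of nonclassical monocytes and macrophages, was at 8.46 and 37.2 CPM (2.01, interval 1.40 to 2.95). Over marker-rich members Fcgr4 was at 9.65 and 30.9 CPM (1.58), and in lymphoid barcodes it was at 2.52 and 24.1 CPM. The part of RNA from outside the cell in its ratio was not tested. Trem2, a lipid-sensing receptor, was at 32.9 and 109 CPM (1.70), and its adaptor Tyrobp at 1917 and 2558 CPM (0.42). Msr1, a scavenger receptor, was at 69.6 and 39.1 CPM (-0.81) and Itgam, the integrin CD11b, at 340 and 213 CPM (-0.67). Apoe, which carries lipid and binds Trem2, was at 344 and 848 CPM (1.30, interval 1.18 to 1.42). The rest of the macrophage list did not move with it: of its 6 tested genes Trf (-0.94) and Adgre1 (-0.72) were lower. Trf took the other sign under 1 alternative (-1.16 to 0.57 over all of them).

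The phagocyte oxidase showed opposite ratios for its 2 membrane chains. Cybb (gp91phox) was at 1714 and 956 CPM (-0.84, interval -0.92 to -0.77), and Cyba (p22phox) at 1047 and 1762 CPM (0.75, interval 0.68 to 0.82). Leaving Gm42418 out of the total lowers both by the same amount and leaves the signs. Among the antioxidant genes of the list, Sod2 of the mitochondrion was at 42.3 and 96.1 CPM (1.16) and Sod1 of the cytosol at 276 and 194 CPM (-0.51).

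Of 15 genes of MHC class I antigen presentation tested, 9 had intervals below 0 and 3 above (33.7% and 25.5% of all genes). At least 2-fold lower were 2 (1 over marker-rich members), against 6.19% of all genes, and the median was -0.37. H2-Q7 (63.9 and 25.8 CPM, -1.28) and Tapbp, the tapasin that loads peptide (246 and 120 CPM, -1.03), had the ratios of at least 2-fold, and B2m, the shared light chain, was at 1983 and 1298 CPM (-0.61). The immunoproteasome subunits Psmb10 (167 and 237 CPM) and Psmb8 (304 and 430 CPM) were higher, at 0.50 each. Class I genes are close relatives that can share reads.

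Inflammatory genes had 6 intervals above 0 and 9 below among 16 tested (25.5% and 33.7% of all genes), with a median of -0.40. Cxcl10, an interferon-induced chemokine, was at 73.8 and 31.5 CPM (-1.20). Ccl5 was the lowest at 124 and 50.5 CPM (-1.28), but 260 of its 264 control UMIs and 130 of its 133 MYC UMIs lay in marker-poor members, and over marker-rich members it was at 2.15 and 1.23 CPM. Clec4e, a receptor for mycobacterial lipid, was at 17.9 and 46.7 CPM (1.34) beside Cd14 at 1.66. In the inflammasome list of 8 tested genes Pycard, the adaptor ASC, was at 249 and 557 CPM (1.16), and Nlrp3, a sensor, at 40.9 and 23.2 CPM (-0.79).

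Among S100 and annexin genes outside the rule, which uses S100a8 and S100a9, 9 of 16 had intervals above 0 and 2 below. The shares over all genes were 25.5% and 33.7%, and the list median was 0.27. S100a1 was the highest at 30.6 and 89.2 CPM (1.52), followed by Hmgb1 (258 and 423 CPM) and S100a10 (443 and 726 CPM) at 0.71 each. Anxa6, a membrane-binding annexin, was at 153 and 75.6 CPM (-1.01), and Anxa3 at 67.2 and 39.1 CPM (-0.77). With Gm42418 left out of the total the list median was 0.04.

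Granule proteases are made at the progenitor stage. Prtn3 (proteinase 3, chr10:79874476-79883174) was at 128 and 543 CPM (2.08, interval 1.90 to 2.28), and Ctsg (cathepsin G, chr14:56099881-56102574) at 38.1 and 205 CPM (2.40, interval 2.09 to 2.78). Elane and Mpo, which neutrophil precursors make in the same granules, were at 0.11 and 0.28 over all members. Over marker-rich members Prtn3 was at 91.7 and 377 CPM (2.03) and Ctsg at 10.7 and 84.4 CPM (2.86). In the same cells Elane was at 38.1 and 88.5 CPM (interval of the ratio 0.82 to 1.62). Mpo was at 56.3 and 99.2 CPM there (0.81, interval 0.48 to 1.16). At least 5 UMIs of the primary granule genes were found in 17 control members (6.85%) and 92 MYC members (33.9%).

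These values moved with other measures. Lymphoid barcodes are not known to make these proteases. In them Prtn3 was at 88.9 and 501 CPM and Ctsg at 31.7 and 249 CPM, close to the levels over all members. For Ctsg these lymphoid levels were above those of marker-rich members. In barcodes with Mki67 or Top2a UMIs Prtn3 was at 2349 and 2393 CPM. The 5 richest cells held 62 of 81 control and 326 of 539 MYC UMIs of Ctsg. The part of RNA from outside the cell in the members' values was not tested.

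Nkg7, on the precursor list and also an NK cell gene, was at 64.4 and 26.2 CPM (-1.27), and over marker-rich members at 2.68 and 4.12 CPM (0.47). Prss34, a basophil protease, was at 69.6 and 207 CPM (1.56), with 126 of 148 control and 518 of 544 MYC UMIs in the 5 richest cells, and at -0.42 over marker-rich members. Marker-poor members held 132 of the 137 control UMIs of Nkg7 and 529 of the 544 MYC UMIs of Prss34. Il7r, a lymphoid receptor, was likewise at 39.5 and 1.52 CPM, with 77 of its 84 control UMIs in marker-poor members.

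Of the remaining genes with the largest ratios among those that averaged 100 CPM or more, Mif (macrophage migration inhibitory factor) was at 53.6 and 221 CPM (2.02, interval 1.75 to 2.35). Ppp1r14b, an inhibitor of protein phosphatase 1, was at 53.1 and 201 CPM (1.90), and Ssr4, a subunit of the complex at the secretory channel, at 141 and 478 CPM (1.75). Wfdc21 was at 62.1 and 211 CPM (1.75). It is not on the neutrophil list but was at 4903 and 4391 CPM in neutrophil barcodes. In lymphoid barcodes it was at 64.9 and 105 CPM, and in marker-poor members its ratio was -0.82. On the lower side Lpl (lipoprotein lipase, chr8:68880491-68907448) was at 191 and 52.0 CPM (-1.86, interval -2.17 to -1.60), Cd84, an adhesion receptor of the SLAM family, at 235 and 78.6 CPM (-1.57), and Rnf213 at 199 and 65.3 CPM (-1.59). Tmcc1 (330 and 115 CPM, -1.51), 9930111J21Rik2 (352 and 118 CPM, -1.57) and Wnk1, a kinase (157 and 63.4 CPM, -1.30), completed the group with Gm26917 (336 and 131 CPM, -1.35), which lies next to Gm42418 on chromosome 17.

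**Figure D4:**
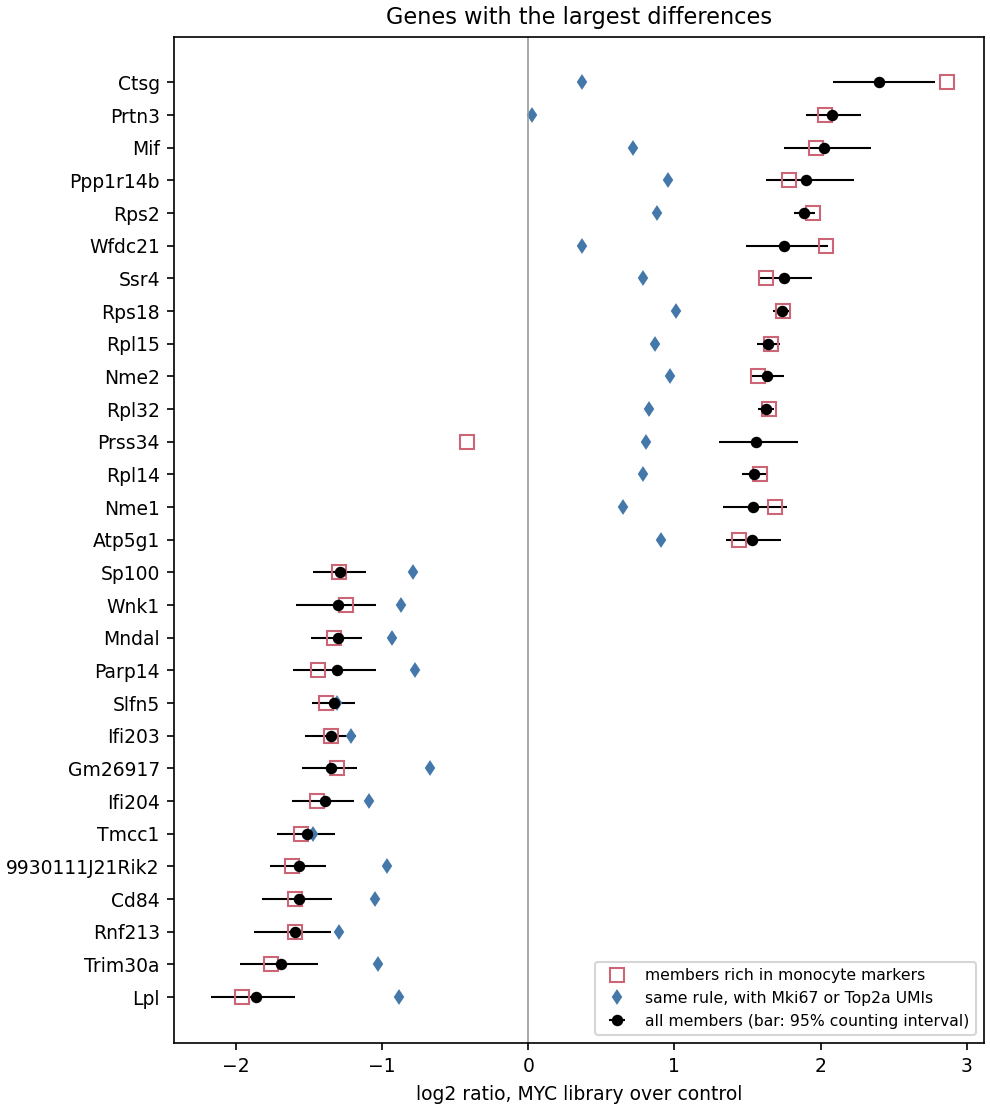
Log2 ratio (MYC library over control, horizontal) of the 15 highest and 14 of the 15 lowest genes that averaged 100 CPM or more. Haemoglobin genes, genes of the neutrophil list and rule genes are left out. Ratios are over all members with 95% counting intervals, over marker-rich members, and in barcodes with Mki67 or Top2a UMIs. Prss34 is at 1.56 over all members and -0.42 over marker-rich ones, and Prtn3 is at 2.08 in members and 0.03 in barcodes with Mki67 or Top2a UMIs.

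Members and their counterparts with Mki67 or Top2a UMIs differed in the size of most ratios. In the counterparts Mif was at 0.72, Rps2 at 0.88 and Nme1 at 0.65, against 2.02, 1.89 and 1.54 in members. The MYC-induced list had a median of 0.35 there and started from a higher control level, 16052 CPM summed against 6172 CPM in control members. In MYC members the sum was 12027 CPM, still below the counterparts of the control. Tmcc1 was at -1.47 in the counterparts, near its value of -1.51 in members. These differences between cell groups were not tested.

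Cell cycle genes outside the rule were scarce in members. Of 20 S phase and 20 G2 and M phase genes, 7 and 5 reached the level for calls. Ube2c (28.2 and 64.2 CPM, 1.16) and Ccnb2 (13.6 and 37.6 CPM, 1.40), which act in mitosis, were at least 2-fold higher in MYC members, and Smc4 was at 75.7 and 52.4 CPM (-0.52). The S phase median was 0.12, and -0.11 over marker-rich members.

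Markers of other cell types had these summed levels. B and T cell genes summed to 193 CPM in control and 26.2 CPM in MYC members, with 3 of the 12 at 0 in the MYC library and 1 of 12 at the level for calls. Dendritic cell genes summed to 1901 and 1828 CPM, of which 3 and 5 of 18 were at 0, and erythroid genes to 1497 and 870 CPM with none of 12 at 0. Of the erythroid genes Hba-a2, a haemoglobin chain, was at 550 CPM in control members and had a UMI in 97.6% of them. Neutrophil genes summed to 5697 and 6332 CPM over 17 genes with none at 0 (S100a8 and S100a9, which the rule limits, included), against 340545 and 364010 CPM in neutrophil barcodes. Nonclassical monocyte genes summed to 1608 and 1704 CPM over 16 genes, and macrophage genes to 856 and 1261 CPM with 2 of 16 at 0 in each library. Their part in the members' ratios was not tested beyond the values over marker-rich members.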

How the data were processed

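The deposited matrices hold raw UMI counts as whole numbers, which per the file headers the authors made with Cell Ranger (version 6.0.0). The submitters' processing notes name GRCm38 (mm10) and Seurat, and the labels' protocols a droplet 3′ kit; how barcodes were called as cells is not given in the sources used here. Counts of the members were summed per library and scaled to CPM, and log2 ratios used a pseudocount of 1 CPM over genes that averaged 20 CPM or more, with exact conditional binomial intervals. Called means a ratio of at least 2-fold. List medians are over tested genes. Shares have Clopper-Pearson intervals and their differences Newcombe intervals. With 1 library per genotype no test was run, and calls and intervals compare these libraries, not the genotypes. The ratio script was tested on simulated data. Scrublet in scanpy 1.11.5 called 670 of 13251 control barcodes (5.06%) and 0 of the MYC library, so it has not worked there, and no doublet was removed; 3 members were called. Nothing was corrected for free RNA. The members and gene lists were chosen with earlier results of these data known. The text names the 15 highest and 15 lowest ratios at a mean of at least 100 CPM. Rule, sex-linked, immunoglobulin, T-cell receptor, haemoglobin and mitochondrial genes and genes of the neutrophil list are left out of these. The highest and lowest genes of each list and the defining markers are named too. Other list genes were chosen after their values were seen. Some genes that these rules pick are not reported here. Gene positions are from the GRCm38 annotation (99.8% of 32286 features matched). Lymphoid barcodes had at least 4 UMIs of 6 B and T cell genes and none of the 5 monocyte genes.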

Additional observations from a re-analysis of the deposited data

How the results depend on the processing

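No paired analysis was possible because each genotype had 1 library; no library could be left out either. Of 20 alternatives, 5 were chosen after seeing the data: at most 2 UMIs of Mki67 and Top2a, the 10% highest Scrublet scores left out, each gene's 5 richest cells left out, Gm42418 left out of the total, and marker-poor members left out. Of the 30 genes with the largest ratios, 29 never took the other sign under the alternatives and 9 stayed at 1 or more in size. For Ctsg and Prtn3 the alternative without primary granule UMIs is no test, because it selects on them and sets their ratio to 0. Of 24 list medians 15 kept their sign. The share difference of 0.699 points was 1.92 with the rule applied after thinning to 2000 UMIs, 5.31 with cells that had Mki67 or Top2a UMIs kept, 1.35 with at most 2 UMIs of Mki67 and Top2a, and -0.195 over members without primary granule UMIs. The counts of 273 genes higher and 319 lower were 32 and 89 with cells that had Mki67 or Top2a UMIs kept, 509 and 537 without primary granule UMIs (56 and 24 cells), 418 and 199 with median-of-ratios scaling, 167 and 813 with the 20 most abundant genes left out of the total, 148 and 775 with Gm42418 left out, 166 and 123 at a mean of at least 50 CPM, and 809 and 1317 with no filter on low levels. Leaving Gm42418, mitochondrial and ribosomal protein genes out of the total gave 511 lower. Prss34 reversed to -1.71 after thinning the rule, -2.01 without primary granule UMIs, -0.17 with at most 2 UMIs of Mki67 and Top2a, -0.42 without marker-poor members and -0.0608 without its 5 richest cells. Ccl5 reversed to 0.35 without primary granule UMIs and Nkg7 to 0.47 without marker-poor members. The cause of these changes was not tested. Genes with a mean below 20 CPM were left out of the main calls. Some of them had counting intervals that excluded 0, such as Igfbp4 (1.23 to 2.89) and Trbc2 (-6.83 to -2.88).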

Other observations

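Lysosome and cathepsin genes had 5 intervals above 0 and 11 below among 19 tested (25.5% and 33.7% of all genes), with a median of -0.17. Psap, the precursor of the saposins that help degrade sphingolipids, was at 2875 CPM in control and 1632 CPM in MYC members (log2 ratio -0.82), and Ctsb (cathepsin B) at 642 and 417 CPM (-0.62). Ctsl (cathepsin L) was at 33.4 and 72.9 CPM (1.10) and Ctsz at 312 and 465 CPM (0.58). Cathepsins of the same compartment thus had ratios of either sign.

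Genes that respond to handling of the cells had no common direction: the 17 tested immediate early genes had a median of -0.08. None was 2-fold higher or lower over all members, and 1 was at least 2-fold higher over marker-rich members. Klf4 (-0.75) and Zfp36 (-0.70), a repressor of cytokine messages, were the lowest, and Ier3 (0.82) and Nr4a1 (0.54) the highest. The 14 heat shock and folding genes had a median of 0.16, from Canx, a chaperone of the endoplasmic reticulum (-0.52), to Hspe1, a mitochondrial chaperone (0.78).

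Haemoglobin genes, which monocytes do not make, differed among themselves: Hba-a2 was at 550 and 120 CPM (-2.19) and Hbb-bs at 368 and 363 CPM (-0.02). In lymphoid barcodes the erythroid list had a median of -2.30, and in members -0.58.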
